A study of Mus musculus with 4 samples.

Results

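Granzymes, perforin and Nkg7, the proteins of the cytotoxic granule, were followed in CD8 T cells sorted from mouse tumors. The 7 genes, Gzma, Gzmb, Gzmc, Gzmk, Gzmm, Prf1 and Nkg7, were taken by symbol from the 31053 genes in the count matrices, and all 7 were found in each of the 4 libraries. Male FVB mice carried subcutaneous Myc-CaP tumors, a prostate cancer line from a Myc transgenic mouse, and cells carrying CD3 and CD8 were sorted from the tumors and profiled with the 10x Chromium 3′ v3 kit. The control group (Ctrl), mice given an anti-PD-L1 antibody at 10 mg/kg (aPD-L1), mice given oxaliplatin, a platinum drug, at 6 mg/kg (Oxali) and mice given both agents at those doses (Combo) made 1 library each, with injections once a week for 3 to 4 weeks in the treated groups. Age, the treatment given to the controls and the number of mice per library were not given in the sources used here. With 1 library a group there is no replicate check and no p-value, and the intervals printed here are 95% exact intervals that cover counting error only.

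Cytotoxic lymphocytes kill by emptying granules onto a target cell. Perforin, the product of Prf1, opens pores in the target membrane, and granzymes, a family of serine proteases, pass into the target and cleave its proteins. Granzyme B cleaves after aspartate and sets off apoptosis, granzymes A and K cleave after basic residues, and granzyme M cleaves after long aliphatic residues such as methionine and leucine. Granzyme C belongs to a rodent group of granzymes encoded beside Gzmb. Nkg7 is a granule membrane protein needed for full release of granules. In mouse T cells, Gzmb and Prf1 mRNA can be present for some time before protein is made, so the levels below are levels of mRNA.

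The genes fall into a few genomic neighborhoods. On mm10 (GRCm38), Gzmb lay at chr14:56258838-56262260 on the minus strand, next to Gzmc at chr14:56231441-56234656, also on the minus strand, in a run of 7 granzyme genes over 144.6 kb from Gzme to Gzmb. Gzma at chr13:113093825-113100981 and Gzmk at chr13:113171608-113225908 were neighbors on the minus strand, and the Gzmk model overlapped Esm1. Gzmm lay at chr10:79689020-79695261 and Prf1 at chr10:61297833-61304680, both on the plus strand, and Nkg7 lay at chr7:43437073-43438249 on the plus strand. No stretch of 91 bases in the longest transcript of any of the 7 genes was shared with another gene, and the longest stretch that Gzmb and Gzmc shared in their last 500 bases, where a 3′ kit reads, was 9 bases.

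The promoters of Gzmb and Gzmc are shown because these neighbors had different patterns across cells and libraries, with those of Gzma and Prf1, which met Gzmb in the same cells to different extents. Each run holds the 250 bases before the RefSeq start on GRCm38.p6, 5′ to 3′ along the gene. Capitals mark matches, on either strand, to the AP-1 motif TGANTCA, the RUNX motif TGTGGT, the T-box motif GGTGTGA or the cyclic AMP response element TGACGTCA.
Gzmb, chr14:56262335-56262584, minus strand: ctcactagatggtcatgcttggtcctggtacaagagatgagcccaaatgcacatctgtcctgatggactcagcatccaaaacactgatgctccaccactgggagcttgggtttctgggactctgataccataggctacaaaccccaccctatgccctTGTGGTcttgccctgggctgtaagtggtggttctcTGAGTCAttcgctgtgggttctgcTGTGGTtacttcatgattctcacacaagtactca
Gzmc, chr14:56234658-56234907, minus strand: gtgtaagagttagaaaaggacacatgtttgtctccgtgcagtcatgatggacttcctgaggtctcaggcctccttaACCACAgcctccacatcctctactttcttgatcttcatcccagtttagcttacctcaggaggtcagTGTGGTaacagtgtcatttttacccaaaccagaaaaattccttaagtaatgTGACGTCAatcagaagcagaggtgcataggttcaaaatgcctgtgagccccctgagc
Gzma, chr13:113100982-113101231, minus strand: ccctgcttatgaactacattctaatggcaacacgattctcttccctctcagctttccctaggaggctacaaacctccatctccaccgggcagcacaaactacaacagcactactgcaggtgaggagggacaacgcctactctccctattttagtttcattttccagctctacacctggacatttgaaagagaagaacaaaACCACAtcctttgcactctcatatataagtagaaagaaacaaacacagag
Prf1, chr10:61297586-61297835, plus strand: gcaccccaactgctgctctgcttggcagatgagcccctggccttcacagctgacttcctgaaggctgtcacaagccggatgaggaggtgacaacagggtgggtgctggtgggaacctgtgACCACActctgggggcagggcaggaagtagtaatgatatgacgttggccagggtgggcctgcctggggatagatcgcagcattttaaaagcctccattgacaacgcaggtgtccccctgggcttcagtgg
Counting back from the start, the Gzmb run held an AP-1 match at -58 and RUNX matches at -93 and -34. The Gzmc run held RUNX matches at -174 and -108 and a cyclic AMP response element at -57, the Gzma run a RUNX match at -50, and the Prf1 run a RUNX match at -130. Of 32851 promoters of the same length, 6.75% held the AP-1 motif, 14.0% the RUNX motif, 3.33% the T-box motif and 1.55% the cyclic AMP response element. None of the motifs overlapped another in these 4 runs, and a match is a match of letters and no measure of binding.

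Of 1116, 1642, 1426 and 1324 barcodes in Ctrl, aPD-L1, Oxali and Combo, 1042, 1468, 1261 and 1177 had 500 or more genes and no more than 10% mitochondrial UMIs. Clusters made without the granzymes, Prf1 and Nkg7 were called T-like by their T-cell markers, and 725, 1073, 930 and 782 cells in the same order were T-like, with 2756731 to 3768268 UMIs a library. Among T-like cells thinned to 1500 UMIs each, 61.7% had Cd8a, 70.1% Cd8b1, 53.8% Cd3e and 0.651% Cd4. The libraries differed in makeup: a cluster led by heat shock and immediate early genes held 51.8% of the T-like UMIs of Ctrl and 2.01% to 2.81% of those of the treated libraries, and 13.3% to 18.3% of T-like cells had at least 3 UMIs of macrophage and monocyte markers. Values that move with these features are given beside the results they touch. At most 1 barcode sequence was shared by any pair of libraries.

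The genes of the granule had different orders across the libraries. A gene's level is its UMIs summed over the T-like cells of a library, in CPM, which scales the UMIs of every library to the same total. Gzmb was at 486 CPM [461, 513] in Ctrl, 721 CPM [694, 749] in aPD-L1, 383 CPM [363, 404] in Oxali and 1269 CPM [1231, 1308] in Combo. No interval met another, with Combo highest and Oxali lowest. Nkg7 was at 1497 CPM [1452, 1544] in Ctrl, 1842 CPM [1799, 1886] in aPD-L1, 1547 CPM [1506, 1589] in Oxali and 2498 CPM [2444, 2553] in Combo, and the intervals of Ctrl and Oxali overlapped. Prf1 was at 92.1 CPM [81.2, 104] in Ctrl, 128 CPM [116, 140] in aPD-L1, 115 CPM [104, 126] in Oxali and 178 CPM [164, 194] in Combo, where aPD-L1 and Oxali overlapped.

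The other granzymes did not share that order. Gzma was at 53.3 CPM [45.1, 62.7] in Ctrl, 83.1 CPM [74.1, 92.8] in aPD-L1, 118 CPM [107, 130] in Oxali and 117 CPM [106, 130] in Combo, so that both libraries with oxaliplatin stood above the others. Gzmk was at 37.7 CPM [30.8, 45.7] in Ctrl, 12.7 CPM [9.39, 16.9] in aPD-L1, 35.8 CPM [29.8, 42.7] in Oxali and 29.7 CPM [24.1, 36.3] in Combo. Gzmm was at 18.5 CPM [13.8, 24.3] in Ctrl, 36.9 CPM [31.0, 43.6] in aPD-L1, 17.9 CPM [13.7, 22.9] in Oxali and 12.6 CPM [9.02, 17.1] in Combo. The aPD-L1 library was thus lowest in Gzmk and highest in Gzmm, clear of the other libraries in each gene, whereas the other 3 libraries overlapped. Gzmc was at 13.1 CPM [9.15, 18.1] in Ctrl, 9.02 CPM [6.25, 12.6] in aPD-L1, 69.5 CPM [61.0, 78.9] in Oxali and 25.8 CPM [20.5, 31.9] in Combo, and these sums came from few cells, as described further on.

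**Figure D1:**
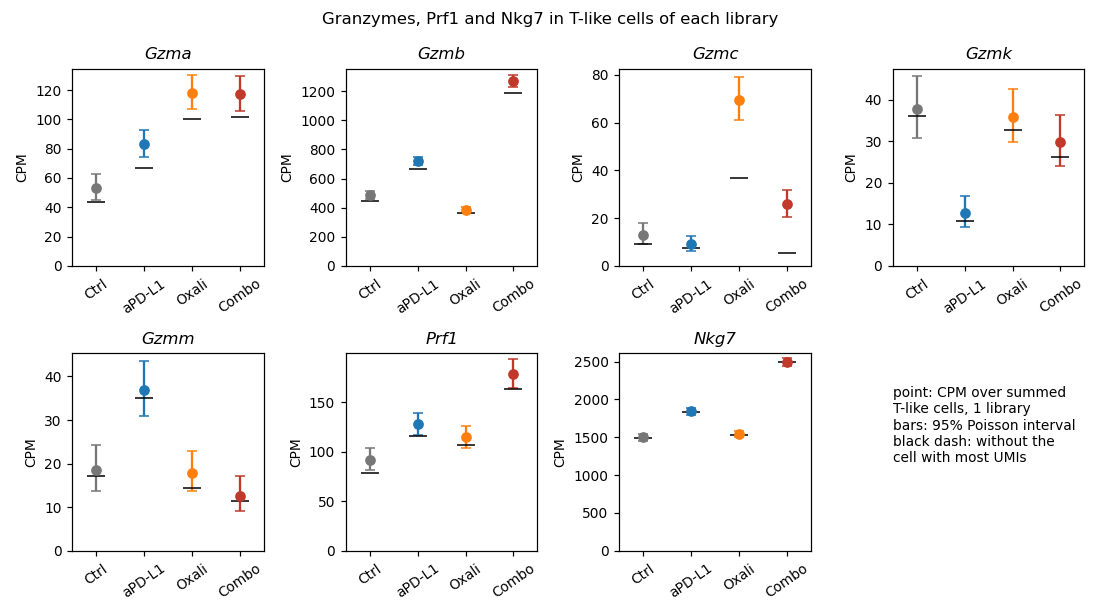
Level of each gene in T-like cells of the 4 libraries, in CPM on a linear axis from 0, with 95% exact Poisson intervals as error bars and a black dash for the level without the cell richest in that gene. Gzmb, Prf1 and Nkg7 are highest in Combo, Gzmc in Oxali and Gzmm in aPD-L1, and Gzmk is lowest in aPD-L1.

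With a change defined as at least 1.5-fold with an interval clear of 1, 5 of the 7 genes were called in Combo against Ctrl, 3 in aPD-L1 and 2 in Oxali. Without the heat shock cluster these counts were 3, 3 and 2, where 5.25% of all genes rose and 3.09% fell in Combo. With cells chosen by marker UMIs 3 were called in Combo and 3 in Oxali. Shares over all genes are not given for that choice, or for aPD-L1 and Oxali without the heat shock cluster. Those counts therefore have no background to be read against. From Ctrl to Combo, all 5 rose and none of the 7 fell, where 6.69% of all 10313 genes tested rose and 3.91% fell. Gzmb rose 2.61-fold [2.45, 2.78], Gzma 2.20-fold [1.82, 2.68], Gzmc 1.97-fold [1.32, 3.00], Prf1 1.94-fold [1.67, 2.25] and Nkg7 1.67-fold [1.61, 1.73]. Gzmk, at a ratio of 0.788 [0.591, 1.05], and Gzmm, at 0.679 [0.439, 1.05], did not pass. The median log2 ratio of the 7 genes was 0.95, and that of all genes tested 0.12. The study named Gzma, Gzmb and Prf1 from these same libraries, so their place in this count is not independent evidence.

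The size of the rise in Combo depended on which Ctrl cells it was measured against. Without the heat shock cluster, the ratio of Combo to Ctrl was 1.68 [1.57, 1.80] for Gzmb and 1.60 [1.53, 1.69] for Nkg7, which still passed, but 1.39 [1.18, 1.66] for Prf1 and 1.46 [1.18, 1.82] for Gzma, which did not. Gzmc was at 1.04 [0.688, 1.59] there, and Gzmk passed as lower at 0.639 [0.460, 0.892]. In cells chosen by marker UMIs in place of clusters, a choice that drops every barcode with an NK marker UMI or at least 3 macrophage UMIs, Prf1 stood at 1.16 [0.960, 1.40] and Gzma at 0.856 [0.656, 1.12], and in T-like cells with no macrophage UMI Prf1 stood at 1.247 [1.01, 1.54] and Gzma at 3.77 [2.79, 5.19]. Gzmb and Nkg7 thus rose under each of these choices, whereas the calls for Prf1 and Gzma were lost under some.

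The single agents were compared with Ctrl in the same way. From Ctrl to aPD-L1, Gzma at 1.56-fold [1.28, 1.91] and Gzmm at 1.99-fold [1.44, 2.81] rose and Gzmk fell, at 2.96-fold lower [2.08, 4.26], where 2.16% of all genes rose and 4.53% fell. Gzmb, at a ratio of 1.48 [1.39, 1.58], and Prf1, at 1.39 [1.19, 1.62], had intervals above 1 but stayed under the fold required, and Nkg7 was at 1.23. Over the alternatives the ratio of Gzmk ran from 0.268 to 0.507 and that of Gzmm from 1.75 to 2.96. For Gzma the ratio ran from 0.943 to 2.70. It was 0.943 [0.750, 1.19] in T-like cells with fewer than 3 macrophage UMIs and 1.02 [0.820, 1.28] without the heat shock cluster. It was 2.70 [2.08, 3.54] when leading genes had to be seen in only 10% of cells and 2.21 [1.67, 2.95] with a stricter filter of 1000 genes and 5% mitochondrial UMIs. Gzmb without the heat shock cluster was at 0.953 [0.887, 1.03].

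From Ctrl to Oxali, Gzma rose 2.22-fold [1.83, 2.70] and Gzmc 5.33-fold [3.74, 7.79] and no gene fell, where 2.31% of all genes rose and 4.30% fell. Gzmb was at a ratio of 0.788 [0.730, 0.851], and at 0.503 [0.463, 0.546] without the heat shock cluster, where it passed as lower. Gzma without that cluster was at 1.46 [1.18, 1.82], just under the fold required, and it was at 4.04 [3.00, 5.54] with no macrophage UMI. Prf1 was at 1.24 [1.06, 1.46], and Gzmk, Gzmm and Nkg7 were at 0.949, 0.967 and 1.03.

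Combo was also compared with each single agent. Against aPD-L1, Gzmb at 1.76-fold [1.68, 1.85], Gzmc at 2.85-fold [1.90, 4.39] and Gzmk at 2.33-fold [1.64, 3.37] were higher and Gzmm was 2.93-fold lower, where 5.82% of all genes were higher and 1.72% lower. Gzmb lost this call without the dividing cluster, at 1.497-fold [1.41, 1.59], in cells thinned to 1500 UMIs, at 1.38-fold, and as a mean over cells that weights each cell equally, at 1.34-fold. Against Oxali, Gzmb at 3.31-fold [3.11, 3.53], Nkg7 at 1.61-fold and Prf1 at 1.56-fold were higher and Gzmc was lower at a ratio of 0.370, where 7.51% of all genes were higher and 2.35% lower. With CPM computed without ribosomal and mitochondrial genes, Nkg7 was at 1.45-fold and 1 of the 7 genes was higher and 2 were lower. Shares over all genes are not given for that scaling, so these counts have no background to be read against. Prf1 fell to 1.34-fold [1.13, 1.60] without the cluster led by Tnfrsf9, S100a4 and Pdcd1. Against Oxali the median log2 ratio was -0.01 over the 7 genes and 0.12 over all genes tested. The comparisons with Ctrl share 1 control library, and those with Combo share Combo.

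Gzmb was seen in a larger share of all T-like cells in Combo than in Ctrl, and in every library a small set of cells held most of it. After thinning to 1500 UMIs, which left out 22 Ctrl, 113 aPD-L1, 95 Oxali and 52 Combo cells, Gzmb was seen in 17.8% [15.02, 20.8] of Ctrl cells, 20.6% [18.1, 23.3] of aPD-L1 cells, 14.97% [12.6, 17.6] of Oxali cells and 28.1% [24.8, 31.5] of Combo cells, against 26.6%, 26.4%, 21.3% and 35.3% before thinning. In the naive-like T-like cells led by Dapl1, Ccr7 and Lef1, which should lack it, the share was 0.318% [0.0386, 1.15] at a median depth of 2448 UMIs, against 2831 over all T-like cells. Without the heat shock cluster the share was 22.3% [17.98, 27.1] of Ctrl cells and 28.5% [25.2, 32.0] of Combo cells, a ratio of 1.28 with intervals that overlapped. Over all T-like cells, between Ctrl and Combo the share of cells rose 1.58-fold and the mean number of UMIs in a positive cell 1.246-fold. Cells with 50 or more Gzmb UMIs numbered 5 of 725 Ctrl cells, 9 of 1073 aPD-L1 cells, 1 of 930 Oxali cells and 20 of 782 Combo cells, and in Combo they were 2.56% [1.57, 3.92] of cells and held 53.1% of the Gzmb UMIs. In Ctrl, aPD-L1 and Oxali such cells held 30.1%, 36.8% and 6.10%. These counts were made before thinning, so they depend on the depth of a cell as well as on its Gzmb level. The dividing cells had a median of 8855 UMIs, against 2831 over all T-like cells.

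Nkg7 had the reverse balance. It was seen in 75.1% [71.7, 78.3] of thinned Ctrl cells, 76.9% [74.1, 79.5] of aPD-L1 cells, 74.5% [71.4, 77.4] of Oxali cells and 85.3% [82.6, 87.8] of Combo cells. The share rose 1.14-fold from Ctrl to Combo and the UMIs per positive cell 1.45-fold, so that most of the difference lay in the amount per cell. A share of 75.1% in Ctrl left little room to rise, whereas Gzmb started at 17.8%. The contrast between these genes therefore depends in part on their starting levels. For Prf1 the share was 10.4% [8.23, 12.9], 12.8% [10.8, 15.1], 9.70% [7.78, 11.9] and 14.7% [12.2, 17.4] in Ctrl, aPD-L1, Oxali and Combo, and it was 7.01% [5.14, 9.29] in the naive-like cells. Prf1 was thus seen in cells in which Gzmb, Gzma and Gzmk were nearly absent.

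The rarer granzymes were seen in few cells. Gzma was in 2.70% [1.63, 4.19] of Ctrl cells, 3.44% [2.38, 4.79] of aPD-L1 cells, 4.43% [3.14, 6.06] of Oxali cells and 4.38% [3.02, 6.13] of Combo cells, against 0.637% [0.174, 1.62] of the naive-like cells. Gzmk was in 4.55% [3.13, 6.37], 1.46% [0.799, 2.43], 4.31% [3.04, 5.92] and 2.88% [1.79, 4.36] of the same libraries, and Gzmm in 2.56% [1.52, 4.02], 4.58% [3.35, 6.10], 1.92% [1.10, 3.09] and 1.78% [0.951, 3.03]. The shares of Gzmk and Gzmm in aPD-L1 therefore differed in the same directions as their levels did. The Gzmk share of aPD-L1 overlapped that of Combo, however, and its Gzmm share overlapped that of Ctrl. Gzmc was in 0.312% to 0.711% of cells in every library, with Oxali, the library of its highest level, at 0.479% [0.131, 1.22].

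A few cells carried much of the granzyme mRNA. Over all 3510 T-like cells, 50% of the UMIs lay in 20 of 206 cells with Gzma, 63 of 950 with Gzmb, 2 of 37 with Gzmc, 54 of 204 with Gzmk, 44 of 170 with Gzmm, 104 of 798 with Prf1 and 573 of 3089 with Nkg7. The richest cell held 28.9% of all Gzmc UMIs, 5.03% of those of Gzma, 2.99% for Gzmb and 0.431% for Nkg7. Gzmk and Gzmm were spread thinly, with at most 12 UMIs in any cell and a single UMI in 55.9% and 62.9% of their positive cells. Gzmb reached 285 UMIs in a dividing Combo cell of 15134 UMIs, 1.88% of that cell's mRNA, and Gzma reached 63 UMIs in an Oxali cell of 2303 UMIs, 2.74% of it.

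**Figure D2:**
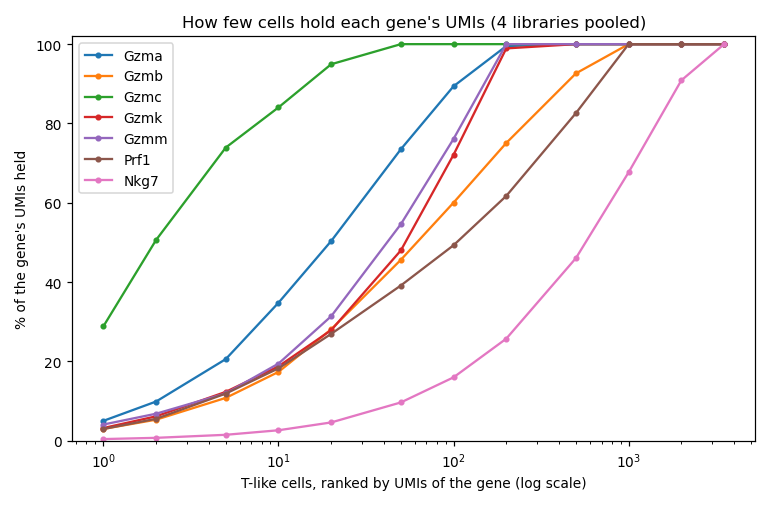
Cumulative share of each gene's UMIs (y axis, percent) held by the T-like cells richest in it (x axis, number of cells on a log scale), for the 4 libraries pooled. The Gzmc curve passes 50% at 2 cells and that of Gzma at 20, and the Nkg7 curve lies lowest, with 50% at 573 cells.

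The Gzmc levels rested on few cells, and the difference between Combo and Ctrl on 1 of them. In Oxali the cell with the most Gzmc held 114 of 241 UMIs, 47.3%, and in Combo it held 66 of 84, 78.6%. Without the richest cell of each library Gzmc was at 9.11 CPM in Ctrl, 7.44 CPM in aPD-L1, 36.7 CPM in Oxali and 5.54 CPM in Combo, and the ratio of Combo to Ctrl was 0.608 [0.313, 1.16], while that of Oxali to Ctrl was still 4.04 [2.62, 6.48]. Of the T-like cells with no macrophage UMI, those of Oxali stood below Ctrl, at a ratio of 0.0970 [0.0188, 0.318]. That choice left out all 4 Oxali cells with 10 or more Gzmc UMIs, since each held at least 1 macrophage UMI. These cells held 93.8% of the Gzmc UMIs of Oxali, so the ratio rested on very few UMIs. Directions for Gzmc are therefore those of a handful of cells.

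These Gzmc-rich cells differed among themselves. The 2 richest Oxali cells, with 114 and 86 Gzmc UMIs, also held 48 and 45 UMIs of Gzmb and 27 and 16 of Prf1, and both lay in the cluster led by Tnfrsf9, S100a4 and Pdcd1. The richest Combo cell, with 66 Gzmc UMIs, held 2 of Gzmb and none of Prf1, and lay in the dividing cluster. Over all barcodes that passed the filter, 12 with at least 10 Gzmc UMIs held 681 of 817 Gzmc UMIs, 83.4%. A pair of Ctrl barcodes outside the T-like cells, in a cluster led by Ccl8 and C1qb with 267 and 191 macrophage UMIs beside 185 and 76 T-marker UMIs, held 233 and 35 UMIs of Gzmc and 159 and 176 of Gzmb. The same barcodes held 53 and 19 UMIs of Gzmd, 17 and 12 of Gzme and 10 and 27 of Gzmg, genes of the same run on chromosome 14. Over all passed barcodes Gzmd was seen in 4 barcodes, Gzme in 2, Gzmg in 2, Gzmf in 4 and Gzmn in none, and that pair held 72 of 74 Gzmd UMIs and every UMI of Gzme and Gzmg, but none of the 14 of Gzmf.

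Most T-like cells held no granzyme mRNA at this depth. Of 3228 thinned cells, 74.7% [73.2, 76.2] had none of the 5 granzymes, 20.5% [19.1, 21.9] had 1, 4.40% [3.72, 5.16] had 2 and 0.403% [0.215, 0.688] had 3. Of the same cells 0 had 4, where the interval allows a share of up to 0.114%. The share with none was 76.96% [73.7, 80.0] in Ctrl and 73.8% [70.8, 76.5] in aPD-L1, and 79.4% [76.5, 82.1] in Oxali against 68.4% [64.8, 71.7] in Combo. The intervals of aPD-L1 and Combo overlapped slightly, and Combo was clear of Ctrl and Oxali. The share with none is not given without the heat shock cluster. There the share with Gzmb was 22.3% [17.98, 27.1] in Ctrl and 28.5% [25.2, 32.0] in Combo, with intervals that overlapped. Among cells with a granzyme, Gzmb alone was the most frequent state, in 503 cells, followed by Gzma with Gzmb in 67, Gzmm alone in 64 and Gzmk alone in 53. Prf1 was seen in 8.75% [7.65, 9.95] of cells with no granzyme, 20.7% [17.7, 24.0] of those with 1 and 23.9% [17.2, 31.8] of those with 2.

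Cells with Gzma usually held Gzmb, and cells with Gzmb seldom held Gzma. Gzmb was seen in 65.3% [56.1, 73.7] of thinned cells with Gzma and in 18.5% of those without it. In single libraries these shares were 57.9% against 16.7% in Ctrl, then 66.7% against 18.99% in aPD-L1, 54.1% against 13.2% in Oxali and 81.2% against 25.6% in Combo, so the excess was present in all 4. In the other direction, 12.1% of cells with Gzmb held Gzma. Prf1 was seen in 22.1% of cells with Gzmb and 9.32% of those without, and per library in 18.4%, 25.3%, 13.6% and 26.3% against 8.65%, 9.58%, 9.01% and 10.1% in Ctrl, aPD-L1, Oxali and Combo. Nkg7 was in 93.6% of cells with Gzmb and 73.8% of those without.

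The remaining granzymes met Gzmb less evenly. Of cells with Gzmk 45.6% held Gzmb, although in Combo the share was 33.3%, near the 27.9% of Combo cells without Gzmk. Of cells with Gzmm 26.4% held Gzmb against 20.1% of those without, from 15.9% in aPD-L1 to 61.5% in Combo, which was 8 of 13 cells. Gzmb was in 13 of 17 cells with Gzmc, 76.5%. The neighbors Gzma and Gzmk met in few cells, with Gzma in 9.71% of cells with Gzmk and 3.55% of those without. All these shares are of cells with at least 1 UMI at 1500 UMIs a cell, and a cell that holds a gene at a low level is often missed at that depth.

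**Figure D3:**
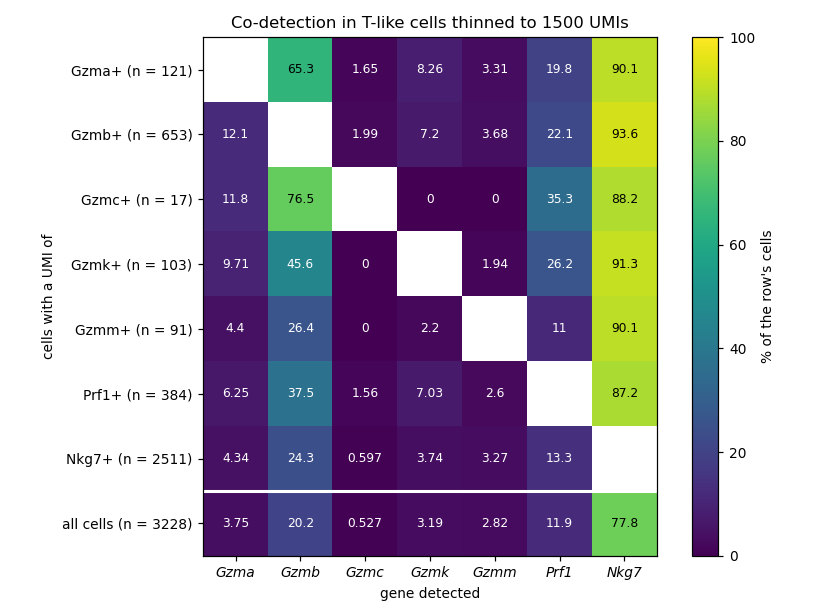
Co-detection in T-like cells thinned to 1500 UMIs: each square gives the percent of cells with a UMI of the gene on the y axis that also held the gene on the x axis, over the 4 libraries pooled, with all cells in the bottom line. Gzmb is in 65.3% of cells with Gzma, and Gzma in 12.1% of cells with Gzmb.

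Within the T-like cells, the granzymes were divided among different clusters. Gzmb was at 1757 CPM [1699, 1817] in the dividing cluster led by Pclaf, Hist1h1b and Ube2c (206 cells), 1510 CPM [1459, 1563] in the cluster led by Tnfrsf9, S100a4 and Pdcd1 (510 cells), 1018 CPM [926, 1115] in the cluster led by Zeb2, Ccl5 and Il18rap (252 cells) and 790 CPM in the interferon-response cluster led by Rsad2 and Ifit1 (533 cells). It was at 4.49 CPM [1.94, 8.84] in the naive-like cells (639 cells). Gzmb was thus lowest in the naive-like cells. Prf1 was highest in the cluster led by Tnfrsf9, at 314 CPM, and still at 46.0 CPM [36.6, 57.1] in the naive-like cells, and Nkg7 ran from 627 CPM there to 3275 CPM in the cluster led by Zeb2.

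Gzma and Gzmk shared a cluster. In the cells led by Zeb2, Ccl5 and Il18rap, Gzma was at 638 CPM [566, 716] and Gzmk at 138 CPM [106, 177], the highest level of each over the 9 T-like clusters. Gzmc was at 108 CPM in the cluster led by Tnfrsf9 and 74.9 CPM in the dividing cells, and had no UMI in 5 of the 9 clusters. The cluster led by Zeb2 had a low depth, with a median of 1672 UMIs a cell, and only 160 of its 252 cells entered the thinned shares.

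**Figure D4:**
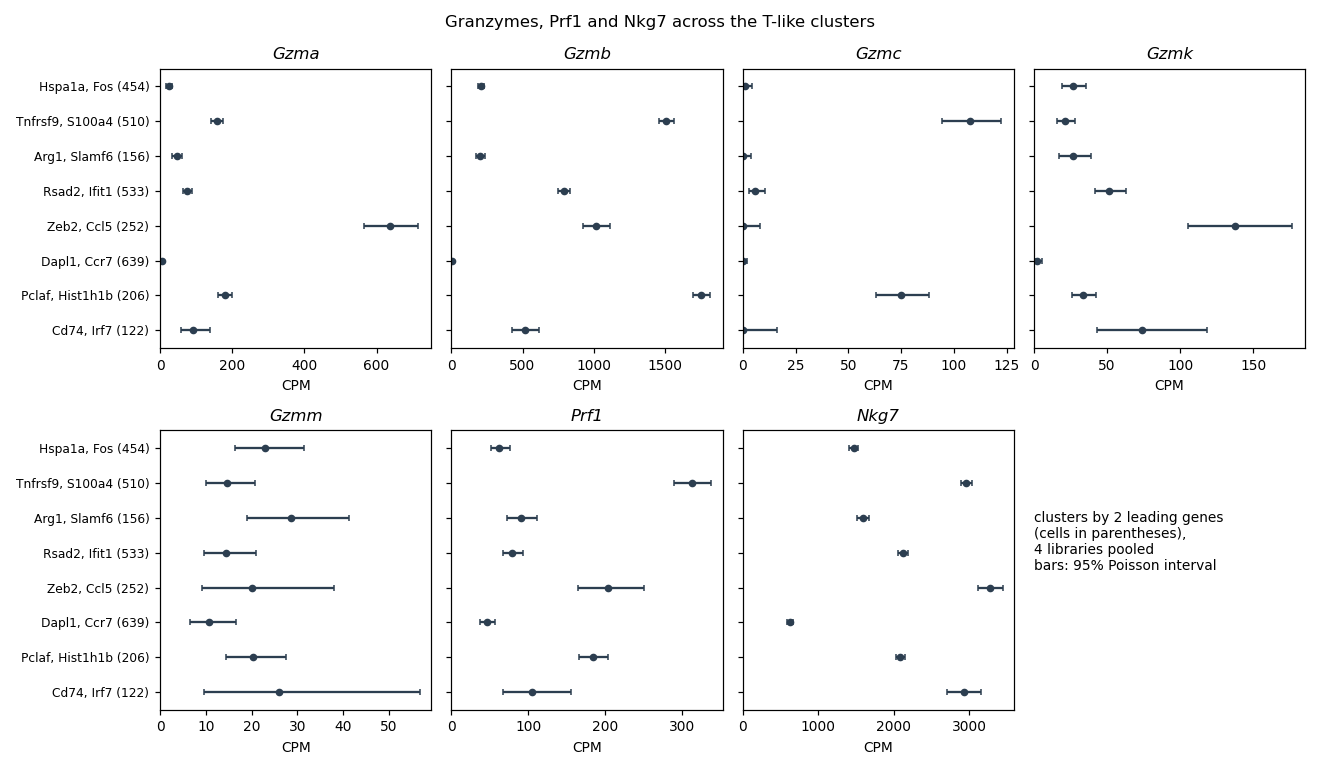
Level of each gene in CPM (x axis, linear) in 8 of the 9 T-like clusters, each named by its leading genes with its cell number in parentheses, with the 4 libraries pooled and 95% exact Poisson intervals as bars. Gzmb is highest in the dividing cluster and lowest in the naive-like cells, and Gzma and Gzmk are highest in the cluster led by Zeb2.

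The libraries filled these clusters unevenly, and the comparison within clusters differed from the pooled one. This comparison was added after the pooled values were seen. The cluster led by Tnfrsf9, S100a4 and Pdcd1 held 8.02% of T-like UMIs in Ctrl, 15.2% of those in aPD-L1, 11.96% of those in Oxali and 29.6% of those in Combo, and the dividing cluster 14.0%, 13.7%, 10.3% and 21.9%. Within the first of these, Gzmb was at 1664 CPM [1498, 1843] in Ctrl and 1542 CPM [1465, 1623] in Combo, a ratio of 0.927 [0.827, 1.04], and in the interferon-response cluster the ratio was 1.03 [0.857, 1.23]. In dividing cells it was at 1121 CPM [1018, 1232] in Ctrl, 1488 CPM [1385, 1597] in aPD-L1, 1157 CPM [1048, 1274] in Oxali and 2596 CPM [2479, 2717] in Combo, a ratio of Combo to Ctrl of 2.32 [2.08, 2.58], and the richest cell gave 15.4% of the UMIs in Combo and 23.6% in Ctrl. Over the 6 clusters with enough UMIs, the Gzmb ratio was above 1, with its interval, in 2, below 1 in 1 and spanned 1 in the others.

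Nkg7 moved more evenly. Its ratio of Combo to Ctrl was above 1, with its interval, in 5 of 7 clusters and below in none, from 1.04 [0.795, 1.35] in the naive-like cells to 1.60 [1.46, 1.76] in dividing cells. Prf1 was above 1 in 2 of 7 clusters and below in none, at 3.14 [1.14, 10.7] in the cluster led by Zeb2, from 5 Ctrl and 20 Combo UMIs, and 2.39 [1.09, 6.20] in the interferon-response cluster. It was at 1.27 [0.952, 1.71] in the cluster led by Tnfrsf9, 0.840 [0.633, 1.12] in dividing cells and 0.583 [0.118, 1.77] in the heat shock cluster. For Gzma the clusters went opposite ways. In the cluster led by Zeb2 it was at 1158 CPM [906, 1458] in Ctrl, 288 CPM [210, 385] in aPD-L1, 912 CPM [767, 1077] in Oxali and 391 CPM [266, 555] in Combo, a Combo to Ctrl ratio of 0.338 [0.214, 0.521]. That rested on 31 UMIs in 6 Combo cells and 72 UMIs in 4 Ctrl cells. In dividing cells Gzma rose from 18.1 CPM in Ctrl to 200.1 CPM in Combo, at 11.0-fold [5.22, 28.0], from 7 UMIs in 4 cells and 143 UMIs in 14 cells.

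The genes met in the same cells as the granzymes differed by granzyme. Gzmb was seen in 67.4% of thinned cells with Havcr2 (29 of 43), the gene of the inhibitory receptor TIM-3, 54.9% of those with Entpd1, which encodes CD39, 41.1% with Lag3, 36.2% with Pdcd1, 38.1% with Ifng and 39.4% with Mki67. It was in 7.44% of cells with Tcf7 and 6.48% with Ccr7, genes of naive and memory T cells. Gzma was in 22.2% of cells with Klrg1, a receptor of effector T cells (8 of 36), where Gzmb was in 55.6%. Gzmk was in 4.90% of cells with the chemokine gene Ccl5 and 0.0871% of those without it.

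Genes with the most similar levels were found over 33 groups of T-like cells, each a cluster in a library with at least 20 cells. Pearson correlations of log2(CPM + 10) over 7457 genes are descriptive, because groups of 1 library share its depth and preparation. Gzmb ran closest to Ybx3 at 0.93, followed by S100a6, Ptms, S100a4 and S100a11, and Nkg7 to Prr13 at 0.93, Cxcr6 and Cyba. Gzma ran closest to Ndfip2 at 0.84, Zeb2 at 0.84, Klrd1 at 0.83, Klre1 and Ccr2, and Gzmk to Zeb2 at 0.80, Ndfip2 and Ccl5. Prf1 ran closest to Capn2 at 0.76, Zbtb32 and Havcr2, and Gzmm to Fam3a at only 0.61. Among the 7 genes themselves, Gzmb and Nkg7 were at 0.88, Gzma and Gzmk at 0.75, Gzma and Gzmb at 0.70 and Gzmb and Prf1 at 0.66, while Gzmm lay between -0.26 and 0.00 with each of the others.

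The sort also held cells outside the T-like class, and the granzymes were not confined to it. A cluster led by Ncr1, Trdc and Xcl1 (197 cells) was given no name, because NK and gamma-delta T markers both led it: 21.4% of its thinned cells had Ncr1, 21.9% Trdc, 54.2% Cd3e and 35.9% Cd8a. Gzma was at 606 CPM [556, 659] there, 6.41-fold [5.78, 7.09] the T-like level, and was seen in 36 of 192 thinned cells, 18.8%. It was at 993 CPM in Ctrl (17 cells), 760 CPM in aPD-L1, 401 CPM in Oxali and 559 CPM in Combo, although 64.9% of the Ctrl UMIs came from 1 cell. Gzmb, at 586 CPM [537, 638], was 0.815-fold [0.745, 0.889] the T-like level, although barcodes chosen by NK marker UMIs in place of clusters were at 1.27-fold. The Gzma level was near that of the T-like cluster led by Zeb2. Gzmc, seen in fewer than 1% of thinned T-like cells, was in 9 of 192 thinned cells here, 4.69% [2.17, 8.71], of which 7 were Combo cells. Nkg7 was seen in 93.2% [88.7, 96.4] of its cells, Prf1 in 15.6% [10.8, 21.6], Gzmk in 1.04% and Gzmm in 1.04%. When 245 barcodes were taken by NK marker UMIs alone, Gzma was at 470 CPM [435, 507] and Gzmb at 891 CPM [842, 942].

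The highest Gzmb level of any class was in a small cluster led by Tnfrsf4, Foxp3 and other regulatory T-cell markers. Of its 75 cells, 64 reached the thinning depth, and of these 29.7% had Foxp3, 12.5% Cd4 and 56.2% Cd8a, so Cd8a was seen more often than Cd4 and the cluster is called by its leading genes. Gzmb was at 2249 CPM [2077, 2431], 3.13-fold [2.88, 3.39] the T-like level, and in 56.2% [43.3, 68.6] of cells. By library it was at 334 CPM [183, 560] in Ctrl (10 cells), 3355 CPM [2860, 3912] in aPD-L1 (17 cells), 2047 CPM [1577, 2614] in Oxali (10 cells) and 2454 CPM [2218, 2709] in Combo (38 cells). The level was lowest in Ctrl, but rested on few cells, and 1 cell gave 60.9% of the UMIs in Oxali. Gzmc and Gzmm had no UMI in these cells, and Gzma and Prf1 were at 99.3 CPM and 131 CPM, near the T-like levels. A gamma-delta T-like cluster (90 cells) held Gzmb at 84.9 CPM and in 4.88% [1.34, 12.02] of cells.

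Myeloid barcodes carried granzyme UMIs in proportion to their T-cell UMIs only in part. In 354 macrophage and monocyte-like barcodes Gzmb was at 175 CPM, 0.243-fold [0.224, 0.264] the T-like level, and Gzma at 33.1 CPM. The 38 of them with fewer than 3 T-marker UMIs held 1 UMI of Gzmb, 1 of Prf1, 3 of Nkg7 and none of the other 4 genes. The 316 with 3 or more T-marker UMIs held 38.9 [35.9, 42.1] Gzmb UMIs per 1000 T-marker UMIs, against 78.9 [77.1, 80.6] in T-like cells with fewer than 3 macrophage UMIs. On the same scale Prf1 was at 8.12 against 14.3, Gzma at 7.38 against 9.38 and Nkg7 at 170 against 194. Granzyme UMIs in these barcodes were thus seen where T-marker UMIs were, at a lower rate than in T-like cells for Gzmb and Prf1. A further 419 barcodes led by Ccl8 and C1qb, with both T and macrophage markers, held Gzmb at 404 CPM and Gzmc at 138 CPM, all 269 Gzmc UMIs in 3 barcodes.

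Classes with few T-cell UMIs marked the floor, whereas the dendritic-like barcodes did not. The 67 barcodes led by Fgb and Wfdc12, at a median of 2140 UMIs, held no UMI of any granzyme or of Prf1. Only 45 of them reached the thinning depth, so a low share could be missed. They held 15 Nkg7 UMIs, 13 of them in 1 barcode. The 16 barcodes led by Fscn1 and Il4i1 likewise held no granzyme or Prf1 UMI. In 220 dendritic-like barcodes, 79.4% of which had Siglech, a marker of plasmacytoid dendritic cells, Gzmb was at 158 CPM and in 8.26% [4.97, 12.7] of barcodes, and 70 of the 71 Gzmc UMIs were in 2 Combo barcodes. Scrublet, a doublet caller, marked 23 of the 4948 barcodes. How many doublets it missed was not tested, which is why the marker splits above are given.

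**Figure D5:**
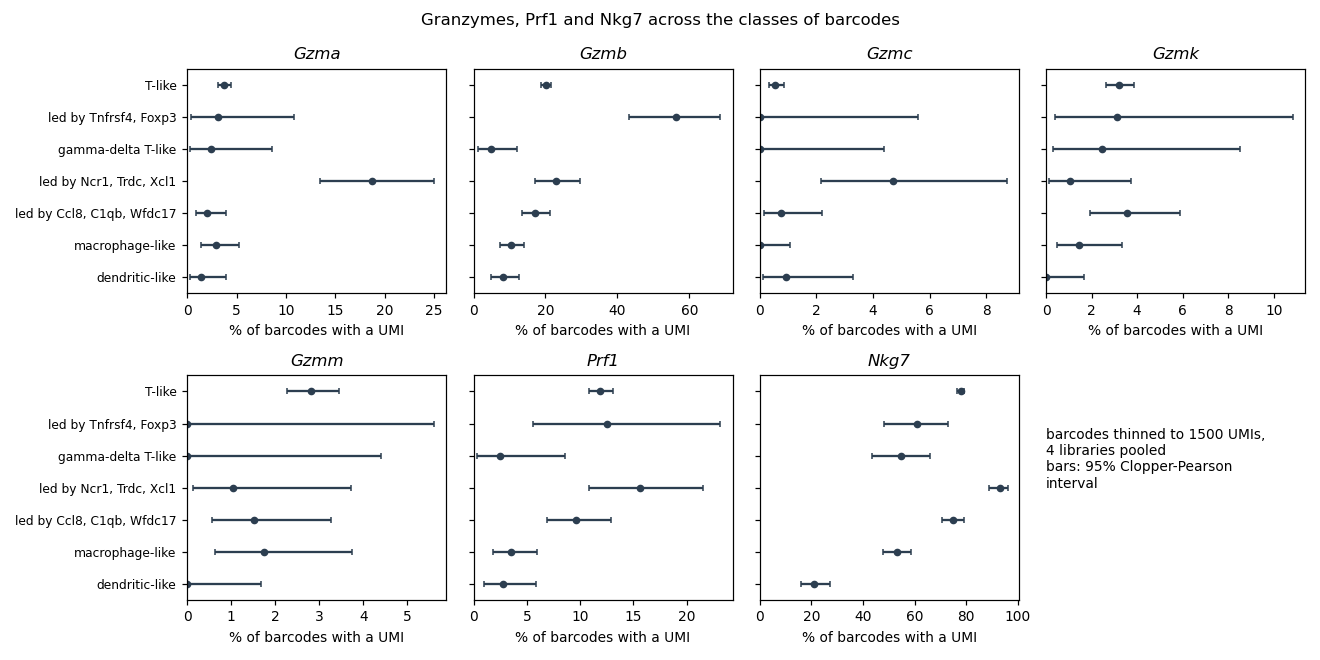
Percent of barcodes with a UMI of each gene (x axis, linear) in 7 classes of barcodes, named by markers or leading genes, after thinning to 1500 UMIs and with the 4 libraries pooled; bars are 95% Clopper-Pearson intervals. Gzmb is most frequent in the cluster led by Tnfrsf4 and Foxp3, at 56.2%, and Gzma in the cluster led by Ncr1, at 18.8%.

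The wider granule machinery was followed in lists of related genes. Of 9 genes of the granule matrix and of granzyme activation, Ctsw, a cathepsin of cytotoxic cells, rose 1.52-fold [1.43, 1.62] from Ctrl to Combo and none fell, where 6.69% of all genes rose. Ctsc, the protease that activates granzymes, stood at a ratio of 1.2503 [1.03, 1.53] and Cst7, an inhibitor of cathepsins, at 1.29 [1.12, 1.48], short of the fold required. Of 11 tested genes of granule transport and fusion, Rab27a, needed for granule docking, rose 2.36-fold [1.57, 3.62], from 11.97 CPM to 28.2 CPM, so that 1 gene of each list was called. The other members of these lists stayed under the threshold. Without the heat shock cluster Ctsw and Rab27a were still called and Cd63, a granule membrane protein, was called too, at 2.93-fold [1.14, 9.59], where 5.25% of all genes rose and 3.09% fell.

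Inhibitors of granzymes rose in Combo as well. Of 4 tested inhibitor genes, 3 rose from Ctrl to Combo and none fell, where 6.69% and 3.91% of all genes did: Serpinb6b at 2.69-fold [2.20, 3.31], Serpinb9, whose product inhibits granzyme B, at 2.21-fold [1.73, 2.85] and Serpinb6a at 1.54-fold [1.246, 1.91]. Against aPD-L1 4 of 4 were higher, where 5.82% of all genes were, and against Oxali 3 of 4, where 7.51% were, while aPD-L1 and Oxali had none past the threshold against Ctrl. The median log2 ratio of the inhibitors was 0.88 in Combo against Ctrl, beside 0.12 over all genes tested. Serpinb6b is also a leading gene of the cluster led by Tnfrsf9, which took a larger share of Combo. Of 18 regulators of cytotoxic and memory T cells, 6 fell from Ctrl to Combo and none rose, where 3.91% and 6.69% of all genes did, among them Id3 at a ratio of 0.283 [0.220, 0.361], Klf2 at 0.346 [0.324, 0.369] and Bach2 at 0.410 [0.262, 0.630], all known for their part in naive or memory T cells. In aPD-L1 5 of the 18 fell, where 4.53% of all genes did, and in Oxali 4, where 4.30% did, and none rose in either. Without the heat shock cluster, a choice added after the values were seen for these lists, in Combo against Ctrl 2 of the 4 inhibitors rose, Serpinb6b at 1.98-fold [1.56, 2.54] and Serpinb9 at 2.11-fold [1.54, 2.97], and 4 of the 18 regulators fell, where 5.25% of all genes rose and 3.09% fell. Bach2, at 0.629 [0.356, 1.13], was no longer called there.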

How the data were processed

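Per the labels, the authors used Cell Ranger 3.1.0 and mm10. The deposited values are UMI counts for each gene in each barcode, whole numbers that were not normalized, and the barcodes had been selected as cells before deposit. The annotation release and the number of mice pooled are not given in the sources used here. The 7 genes and all lists were chosen with earlier results of these data known.

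Barcodes with at least 500 genes and no more than 10% mitochondrial UMIs were kept (4948). Scaled counts (10000 a barcode, log, 2000 variable genes without any granzyme, Prf1 or Nkg7, 30 components, 15 neighbors) were clustered by Leiden at resolution 1 with igraph 0.11.9 and scanpy 1.11.5, and statistics used scipy 1.17.1, numpy 2.4.6 and pandas 2.3.3 under Python 3.11.15. A cluster took a class from its markers unless its 10 leading genes, each seen in 25% of its cells, held more markers of another class. That 25% was set after the clusters were seen. With 10%, the clusters led by Zeb2 and by Cd74 (252 and 122 cells; 31 and 0 in Ctrl, 96 and 39 in aPD-L1, 82 and 47 in Oxali, 43 and 36 in Combo) left the T-like class through 1 gene each, and the cluster led by Ncr1 would be named NK-like. Scrublet was run per library, with its marked barcodes left out as an alternative.

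T-like UMIs were summed per library (2756731, 3768268, 3465172 and 3262071 in Ctrl, aPD-L1, Oxali and Combo) and given as CPM with exact Poisson intervals, and ratios with exact binomial intervals conditioned on both counts. Sums under 3 UMIs were set to 3, so that the smallest level a ratio could use was 0.796 to 1.09 CPM. Genes with at least 20 UMIs were tested (10313), and a gene was called at 1.5-fold with an interval clear of 1. Shares came from cells thinned to 1500 UMIs, with Clopper-Pearson intervals. Named genes were all 7 members, up to 4 genes of each list with at least 50 UMIs and the largest ratio of Combo to Ctrl, and up to 5 most similar genes of each member. Further regulators and co-detected genes were named after their values were seen. Positions came from GENCODE M21 on GRCm38, where all 7 gene IDs matched, and promoters from RefSeq. Values of 1 T-like cluster are not reported here. The steps were tested on simulated data. The alternatives changed cells, classes, clusters, thinning, scaling and the threshold.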

Additional observations from a re-analysis of the deposited data

Results flagged for a closer look

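The barcodes that the filter on genes and mitochondrial UMIs removed are used in no comparison of the report, and they held granule genes above the 3.82 CPM that a sum of 3 UMIs gives. In these 560 barcodes Gzma was at 19.1 CPM [10.7, 31.5], Gzmb at 182 CPM [153, 214], Gzmk at 15.3 CPM [7.89, 26.7], Prf1 at 50.9 CPM [36.4, 69.3] and Nkg7 at 660 CPM [605, 720]. Gzmc and Gzmm, with 1 and 2 UMIs, were below it. By library Gzmb was at 117 CPM [60.6, 205] in Ctrl, 248 CPM [191, 318] in aPD-L1, 47.5 CPM [25.3, 81.2] in Oxali and 353 CPM [266, 459] in Combo. The order is that of the T-like cells, but Ctrl overlapped both Oxali and aPD-L1, and aPD-L1 overlapped Combo.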

How the results depend on the processing

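No paired analysis was possible because each group was 1 library, and for the same reason no library could be left out. Of 700 ratios of the 7 genes over the alternatives, 520 moved by less than their counting interval, 159 moved further and 21 changed side of 1 against a called ratio. Where a value moved the cause was not tested, except that a stricter fold leaves fewer calls by construction.

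All 21 changes of side were in Gzmc or Gzma. With all passed barcodes the Gzmc ratio was 0.774 in Oxali against Ctrl and 0.668 in Combo against Ctrl, and with no filter 0.753 and 0.663. With marker UMIs in place of clusters it was 0.102 in Oxali and 0.386 in Combo against Ctrl, and in Combo 0.648 against aPD-L1 and 3.80 against Oxali, while Gzma was at 0.958 in aPD-L1 and 0.856 in Combo against Ctrl. With fewer than 3 macrophage UMIs a cell, Gzma was at 0.943 in aPD-L1 against Ctrl, and Gzmc in Combo at 0.603 against Ctrl and 0.916 against aPD-L1. Without the richest cell Gzmc in Combo was at 0.608 against Ctrl and 0.743 against aPD-L1, and without the dividing cluster at 0.490 and 0.751. In 2 alternatives chosen after seeing the data, Gzmc with no macrophage UMI was at 0.0970 in Oxali and 0.425 in Combo against Ctrl and at 4.38 in Combo against Oxali, and without the cluster led by Tnfrsf9 at 2.56 in Combo against Oxali.

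The numbers of the 7 genes called moved as follows. Among these alternatives, shares over all genes are given only for Combo against Ctrl without the heat shock cluster. The other counts describe the 7 genes alone. In aPD-L1 against Ctrl, 2 genes rose, but 1 did with marker UMIs, after thinning, without the heat shock cluster, with the 7 genes used for clustering or without the cluster led by Tnfrsf9, 4 did at a looser fold than 1.5 and 0 at 2-fold. In the same comparison 1 gene fell, but 2 did with all passed barcodes, no filter, a filter at 1000 genes and 5% mitochondrial UMIs, thinning, no heat shock cluster, the 7 genes used for clustering, Leiden resolution 0.5 or no macrophage UMI. In Oxali against Ctrl, 2 rose, but 1 did with all passed barcodes, no filter, marker UMIs, no heat shock cluster, no macrophage UMI or without the cluster led by Tnfrsf9. In Oxali 0 fell, but 1 did with the stricter filter, no heat shock cluster, the looser fold or no macrophage UMI, and 2 did with marker UMIs.

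In Combo against Ctrl, 5 rose, but 2 did with marker UMIs, without the heat shock cluster or at 2-fold, and 3 with no macrophage UMI. In Combo 0 fell, but 1 did with no filter, the stricter filter, marker UMIs, CPM without ribosomal and mitochondrial genes, ratios divided by their median, no heat shock cluster or no dividing cluster, and 2 with no macrophage UMI. Against aPD-L1, 3 were higher in Combo, but 1 was without the dividing cluster and 6 were at the looser fold. Against Oxali, 3 were higher in Combo, but 1 was with CPM without ribosomal and mitochondrial genes, with ratios divided by their median or at 2-fold. There 1 was lower, but 2 were under both of those scalings, and 0 were with all passed barcodes, no filter or without the cluster led by Tnfrsf9.

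Shares depended on depth. Gzmb was in 17.8% of Ctrl and 28.1% of Combo cells, and in 22.1% and 36.6% at 2500 UMIs, 26.6% and 35.3% without thinning, and 9.82% and 17.8% when 2 UMIs were required. Prf1 was in 22.1% of cells with Gzmb, and in 17.5% at 1000 UMIs, 32.2% at 2500 UMIs, 39.1% without thinning and 8.82% with 2 UMIs. Gzma was in 12.1% of cells with Gzmb, and in 16.0% without thinning and 8.82% with 2 UMIs. Between classes, the Gzmb ratio of the cluster led by Ncr1 to the T-like cells, 0.815, was 1.27 with marker UMIs and 0.743 in barcodes with fewer than 3 UMIs of the other type's markers, and that of Gzma, 6.41, was 8.06 with leading genes seen in 10% of cells. The macrophage-like ratio of Gzma, 0.350, was 0.898 with marker UMIs, 0.150 with fewer than 3 T-marker UMIs and 0.440 with the 10% rule, and that of Gzmb, 0.243, was 0.495, 0.0179 and, with the 7 genes used for clustering, 0.267. The values of 0.150 and 0.0179 came from macrophage-like sums under 3 UMIs that were set to 3. They mark the floor and are not measured ratios. The ratio of Gzmb in the cluster led by Tnfrsf4 and Foxp3 to the T-like cells, 3.13, was 2.88 with the 7 genes used for clustering and 3.79 with fewer than 3 UMIs of the other type's markers, where that of Gzma, 1.05, was 1.91.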
